A study of Mus musculus with 4 samples.

Results

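The mitochondrial genome of the mouse is a small circle that carries genes for protein subunits of the respiratory chain, for both RNAs of the mitochondrial ribosome and for a set of tRNAs. Its genes were taken as all rows that the deposited table of gene levels places on chromosome MT, which gave 37 of 54532 genes. By their annotated type, 13 encode proteins, 2 encode rRNAs and 22 encode tRNAs. The 4 libraries were made from islets of the pancreas, taken from C57BL/6 males at an age of 10 to 12 weeks. Wild-type islets gave the libraries called wild type 1 and wild type 2. Islets of mice with a miR-29a/b-1 transgene, which adds microRNAs of the miR-29 family in beta cells, gave transgenic 1 and transgenic 2. Where a genotype has a pair of values, number 1 comes first. The labels name neither the promoter of the transgene nor the number of mice or transgenic lines behind a library, so p-values here rest on the spread between libraries alone, and that spread may be technical. The libraries hold RNA of whole islets, in which fewer cells of a type and less RNA per cell cannot be told apart.

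Both strands of the mitochondrial genome are transcribed into long precursors that cover many genes. The tRNAs lie between the protein and rRNA genes, and cutting them out of the precursor frees the messenger and ribosomal RNAs, most of which then receive a short poly(A) tail. All protein genes but mt-Nd6 lie on the plus strand, and 8 of the 22 tRNA genes lie on the minus strand. The encoded proteins are core subunits of complexes I, III, IV and V of the respiratory chain, which beta cells use to turn glucose into the ATP that triggers insulin release. Complex II has no subunit from this genome.

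Sequence decides which reads a counting program can give to a gene, so the genes were first compared with all annotated nuclear transcripts of GENCODE M21 on GRCm38. Of the 13 protein genes, 5 shared at least 90% of their windows of 50 bases with a nuclear transcript on the same letters: mt-Co2 (100%), mt-Co3 (99.9%), mt-Atp6 (99.5%), mt-Nd4l (98.8%) and mt-Nd3 (98.0%). The share was 62.2% in mt-Nd4 and 51.1% in mt-Co1. It was 8.19% in mt-Nd2, 7.61% in mt-Nd5 and 0% in mt-Nd1, mt-Nd6, mt-Cytb and mt-Atp8. Among the rRNA genes it was 1.04% in mt-Rnr2 and 0% in mt-Rnr1, and it was 0% in all 22 tRNA genes. The copies behind these shares were mostly 7 pseudogenes in 1 block on the minus strand of chromosome 1, from 24611535 to 24616197. They follow the order of positions 6390 to 11042 of the mitochondrial genome. The distance from one copy to the next equalled that between the mitochondrial genes in 5 of 6 cases, and in the other, between mt-Nd3 and mt-Nd4l, it was 416 bases on chromosome 1 against 415. Another 6 members lie inside this stretch without an annotated copy of their own, mt-Atp8, mt-Ts1, mt-Td, mt-Tk, mt-Tg and mt-Tr. Sequence between annotated transcripts was not searched, so a share of 0% in these genes does not show that they have no nuclear copy.

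The copies of mt-Co2, mt-Atp6, mt-Co3, mt-Nd4l and mt-Nd4 had 0 differences over the 681, 678, 783, 294 and 876 bases aligned. The copy of mt-Co1, Gm29216, covered 483 bases with 1 difference, A1066T, counted from the first base of mt-Co1. The alignment began at base 10 of the 492 bases of Gm29216, and differences in the bases before it were not counted. The copy of mt-Nd3, Gm28438, differed at T3C and was then identical over 342 bases. These 2 copies are shown with their genes because they hold the only differences found in the stretches compared, and capitals mark the base that differs. The mitochondrial stretches are chrMT:6390-6423 and chrMT:9459-9518 on the plus strand, and the copies lie at chr1:24616155-24616188 and chr1:24613060-24613119 on the minus strand (GRCm38, GENCODE M21 transcripts, 5′ to 3′).
mt-Co1: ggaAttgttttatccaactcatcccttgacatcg
Gm29216: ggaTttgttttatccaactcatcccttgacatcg
mt-Nd3: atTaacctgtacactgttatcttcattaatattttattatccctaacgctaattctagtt
Gm28438: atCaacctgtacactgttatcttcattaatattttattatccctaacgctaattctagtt

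Some members also overlap each other, and reads from an overlap fit both genes. The last 43 bases of mt-Atp8 are also the first 43 of mt-Atp6, and the last 7 bases of mt-Nd4l are the first 7 of mt-Nd4. The ends of mt-Atp8 (chrMT:7890-7969) and mt-Nd4l (chrMT:10114-10173) are shown for this reason, both on the plus strand, with the overlap in capitals.
mt-Atp8: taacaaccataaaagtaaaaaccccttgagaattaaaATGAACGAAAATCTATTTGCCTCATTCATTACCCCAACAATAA
mt-Nd4l: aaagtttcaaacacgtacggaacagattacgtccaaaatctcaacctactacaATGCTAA

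Levels are given in FPKM, sequenced fragments scaled by gene length and library size, as the authors deposited them. Read counts were worked back from these values. The wild-type libraries held 23730364 and 27080907 reads in genes and the transgenic ones 23654135 and 21670854. Of all genes, 12716 had at least 1 FPKM in at least 2 libraries and were compared, among them 13 protein, 2 rRNA and 11 tRNA genes of the mitochondrion. Both libraries numbered 2 lay above both numbered 1 in 34.4% of the genes compared and below both in 32.4%, so each genotype difference is also given within number 1 and within number 2. All 10 beta cell markers were detected, led by Ins2 with 152363 and 211742 FPKM for wild-type and 89340 and 200260 for transgenic islets. Ins1, Ins2 and Iapp together took 27.0% and 33.4% of the wild-type reads and 19.3% and 32.0% of the transgenic ones.

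Mitochondrial genes took between 2.45% and 3.02% of the reads in genes, nearly all of it in protein genes. The share was 3.02% in wild type 1 (95% exact binomial interval 3.02 to 3.03) and 2.65% in wild type 2 (2.64 to 2.65). It was 2.45% in transgenic 1 (2.44 to 2.46) and 2.46% in transgenic 2 (2.46 to 2.47). Both transgenic libraries lay below both wild-type ones. The means were 2.83% ± 0.267 for wild-type and 2.46% ± 0.0106 in transgenic islets (SD, n = 2 each). An exact permutation test gave a 2-sided p of 0.33, the smallest that 2 against 2 libraries allow. The transgenic share was 0.810 times the wild-type share in number 1 and 0.932 times in number 2. Because the insulin genes and Iapp fill much of each library, the share was also taken of the reads outside them, where it was 4.14% and 3.97% for wild-type against 3.03% and 3.62% for transgenic islets. As a share of summed FPKM the genotypes overlapped, with 5.31% and 4.39% against 4.75% and 4.15% (exact permutation test, 2-sided p = 0.667), and transgenic 1 lay above wild type 2.

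**Figure D1:**
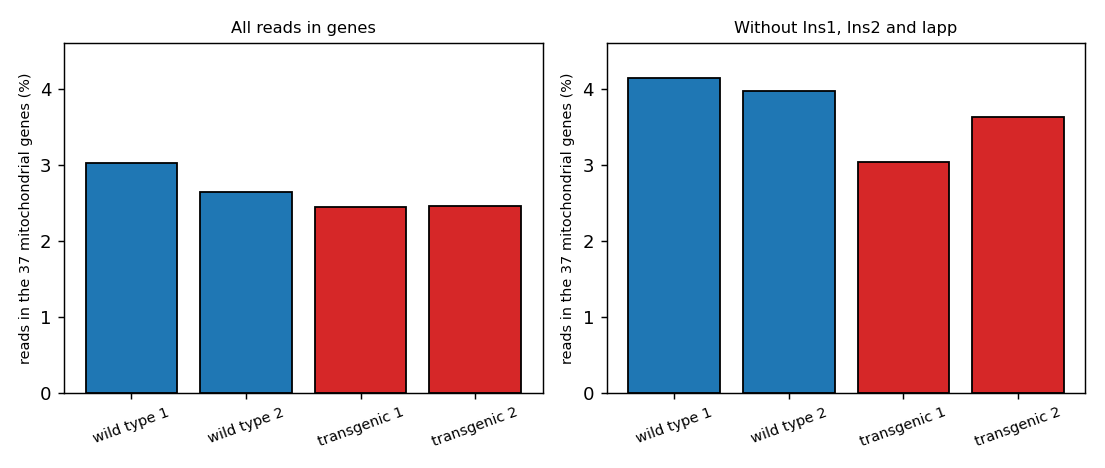
Reads in the 37 mitochondrial genes as a percentage of all reads in genes (left) and of the reads outside Ins1, Ins2 and Iapp (right), 1 bar per library. On both scales the transgenic libraries (red) lie below the wild-type ones (blue), at 2.45% and 2.46% against 3.02% and 2.65% on the left.

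Protein genes held 98.1% to 98.4% of the mitochondrial reads, rRNA genes 1.41% to 1.63% and tRNA genes 0.185% to 0.246%. Within the protein genes, complex I subunits took 39.6% and 40.9% of the wild-type reads and 40.2% and 41.3% of the transgenic ones. Complex IV subunits took 41.6% and 39.1% against 41.0% and 38.1%, and the complex III subunit mt-Cytb took 18.7% and 19.9% against 18.6% and 20.5%. The complex V subunits mt-Atp6 and mt-Atp8 together took 0.120% and 0.186% against 0.176% and 0.108%. Reads of mt-Atp6, mt-Co2, mt-Co3, mt-Nd3 and mt-Nd4l are uncertain because nuclear copies share their sequence, so their part in these shares is uncertain too. The nuclear copy of mt-Atp6 held 852 and 989 wild-type reads and 1284 and 594 transgenic ones. mt-Atp6 itself held 841 and 1236 against 993 and 506. On these counts the make-up by complex differed more between numbers than between genotypes for complexes I, III and IV. mt-Co1 alone made up 37.8% to 41.3% of the protein gene reads.

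Per length, the 13 protein genes formed a group of 7 between 1185 and 7902 FPKM and a group of 6 between 1.23 and 132 FPKM, with no gene between them in any library. mt-Co1 (chromosome MT, 5328 to 6872), the catalytic core of cytochrome c oxidase, had the highest level. It lay at 7902 and 6772 FPKM for wild-type and 5786 and 6095 for transgenic islets. mt-Cytb (14145 to 15288), the cytochrome b of complex III, came next with 4838 and 4709 against 3600 and 4465 FPKM. mt-Nd1 (2751 to 3707), a membrane subunit of complex I, followed with 3082 and 2478 against 2397 and 2391. These 3 were in this order in every library, and their ranges over the libraries did not overlap.

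The other 4 of the upper group are also complex I subunits, and neighbours in their order overlapped in range. mt-Nd5 (11742 to 13565) lay at 2017 and 2025 FPKM for wild-type and 1488 and 1882 for transgenic islets. mt-Nd2 (3914 to 4951) lay at 2029 and 1856 against 1418 and 1766. mt-Nd6 (13552 to 14070, minus strand) lay at 1729.8 and 1725 against 1452 and 1447, and mt-Nd4 (10167 to 11544) at 1494 and 1569.6 against 1185 and 1434. In each of these 4 genes both transgenic libraries were below both wild-type ones. mt-Nd6 had the most even values within a genotype, and it is the only protein gene of its strand. The ratio of mt-Nd5 to mt-Nd6, which overlap by 14 bases on opposite strands, was 1.17 in both wild-type libraries, 1.02 in transgenic 1 and 1.30 in transgenic 2. Whether counting used strand is not given, so reads of such overlaps cannot be told apart.

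**Figure D2:**
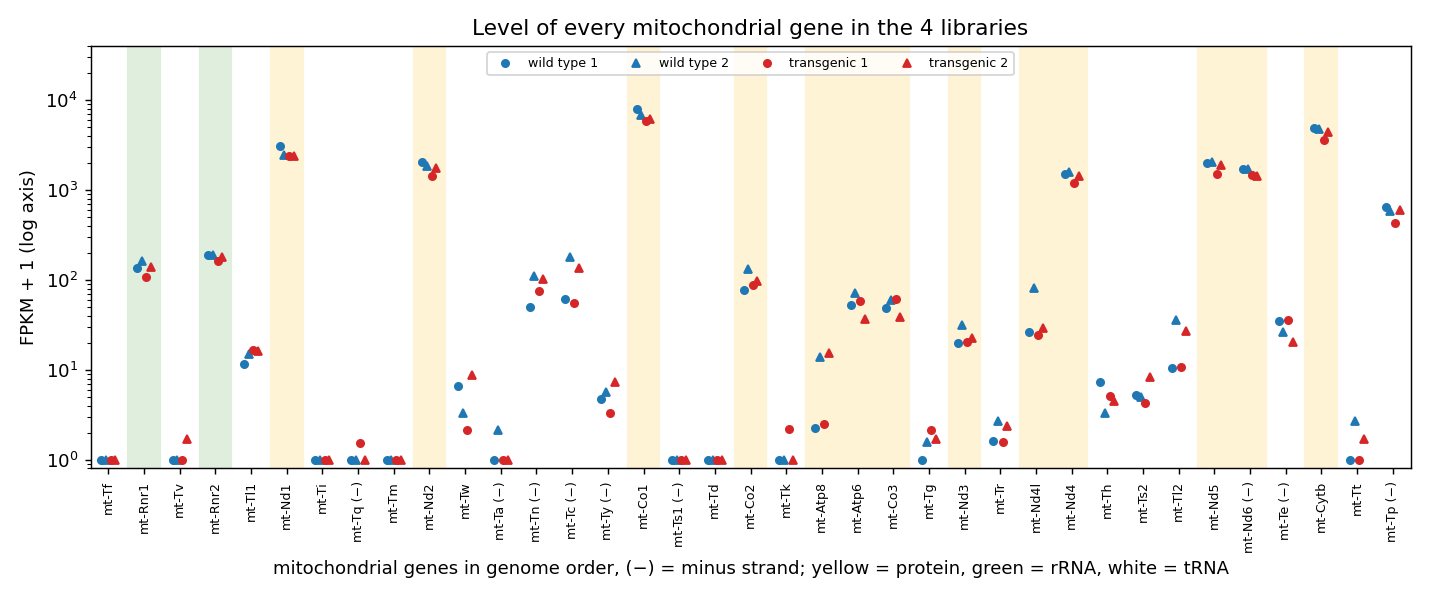
FPKM + 1 on a log axis for all 37 mitochondrial genes in genome order, 1 point per library (blue wild type, red transgenic; circles number 1, triangles number 2). Protein genes from mt-Co2 to mt-Nd4l lie between 1.23 and 132 FPKM, between upper-group neighbours mt-Co1 and mt-Nd4 at 1185 FPKM or more.

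The lower group is a run of neighbours from mt-Co2 to mt-Nd4l, inside the stretch that the block on chromosome 1 repeats. mt-Co2 (7013 to 7696), which joins mt-Co1 in the core of complex IV, lay at 76.7 and 132 FPKM for wild-type and 86.1 and 97.3 for transgenic islets. Its partner mt-Co1 was 51.1 to 103 times higher in the same library. mt-Co3 (8607 to 9390), the remaining mitochondrial subunit of that enzyme, lay at 47.6 and 58.2 against 59.8 and 37.4 FPKM. mt-Atp6 (7927 to 8607), a subunit of the proton channel of ATP synthase, lay at 51.7 and 70.0 against 56.6 and 35.4. The genotypes overlapped in all 3 genes.

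mt-Nd3 (9459 to 9806), a small complex I subunit, lay at 18.7 and 30.8 FPKM for wild-type and 19.2 and 21.6 for transgenic islets. mt-Nd4l (9877 to 10173), another small complex I subunit, lay at 25.4 and 80.1 against 23.4 and 28.5, so wild type 2 stood apart from the other libraries. Behind these levels were 180 and 617 wild-type reads and 179 and 178 in transgenic islets. mt-Atp8 (7766 to 7969), a small ATP synthase subunit, lay at 1.23 and 13.05 FPKM for wild-type and 1.52 and 14.5 for transgenic islets, from 6, 69, 8 and 62 reads. Both libraries numbered 2 were high in mt-Atp8 and both numbered 1 were low, in both genotypes.

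The levels of the lower group stood beside the shared sequence as follows. The 5 genes with at least 90% shared windows ranged from 18.7 to 132 FPKM over the libraries. Of the other 8, the 7 of the upper group were at 1185 FPKM or more, and mt-Atp8, which lies inside the repeated stretch without an annotated copy, was at 14.5 FPKM or less. These levels are uncertain as measures of the genes' RNA, since reads that fit a gene and its copy equally could be dropped or given whole to either. The sources used here do not state the treatment of such reads. The part of shared sequence in the low levels was not tested.

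**Figure D3:**
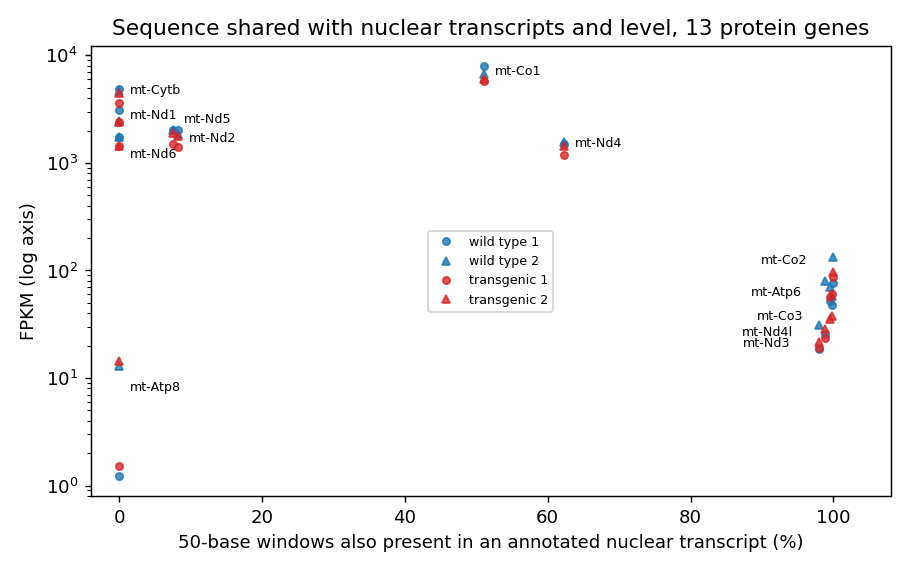
Share of the 50-base windows of each mitochondrial protein gene that also occur in an annotated nuclear transcript (x axis, %) against its FPKM on a log axis, 1 point per library. The 5 genes at 98.0% to 100% lie between 18.7 and 132 FPKM, and mt-Nd4 and mt-Co1 at 62.2% and 51.1% lie with most of the unshared genes at 1185 or more, while mt-Atp8 is low at 0%.

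The copies on chromosome 1 were themselves counted at levels close to those of the lower group. Gm10925, the copy of mt-Atp6, lay at 52.6 and 56.3 FPKM for wild-type and 73.5 and 41.7 for transgenic islets, between 0.804 and 1.30 times the level of mt-Atp6. Gm28437, the copy of mt-Co3, lay at 37.8 and 38.2 against 49.1 and 23.8 FPKM, and Gm28661, the copy of mt-Co2, at 48.3 and 52.2 against 57.3 and 33.7. Gm10222, the copy of mt-Nd4l, lay at 18.8 and 20.9 against 17.0 and 17.2 and did not share the high value of mt-Nd4l in wild type 2. Gm28438, the copy of mt-Nd3, was lower, at 3.64 and 11.4 against 4.95 and 7.31. Gm29216 and Gm28439, the partial copies of mt-Co1 and mt-Nd4, were between 0.00374 and 0.0206 times the level of their genes.

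In the 5 genes from mt-Co2 to mt-Nd4l with a copy, gene and copy had differences between genotypes of the same sign within each number. The copies of mt-Co2, mt-Atp6 and mt-Co3 had log2 fold changes of 0.24, 0.47 and 0.37 in number 1 and of -0.62, -0.42 and -0.66 in number 2. The genes themselves had 0.16, 0.13 and 0.32 in number 1 and -0.44, -0.97 and -0.62 in number 2. The partial copies of mt-Nd4 and mt-Co1 had 0.51 and 0.50 in number 1, where their genes had -0.33 and -0.45, and -0.07 and -1.18 in number 2, where their genes had -0.13 and -0.15. The genes and copies share libraries and letters, so they are not independent observations.

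**Figure D4:**
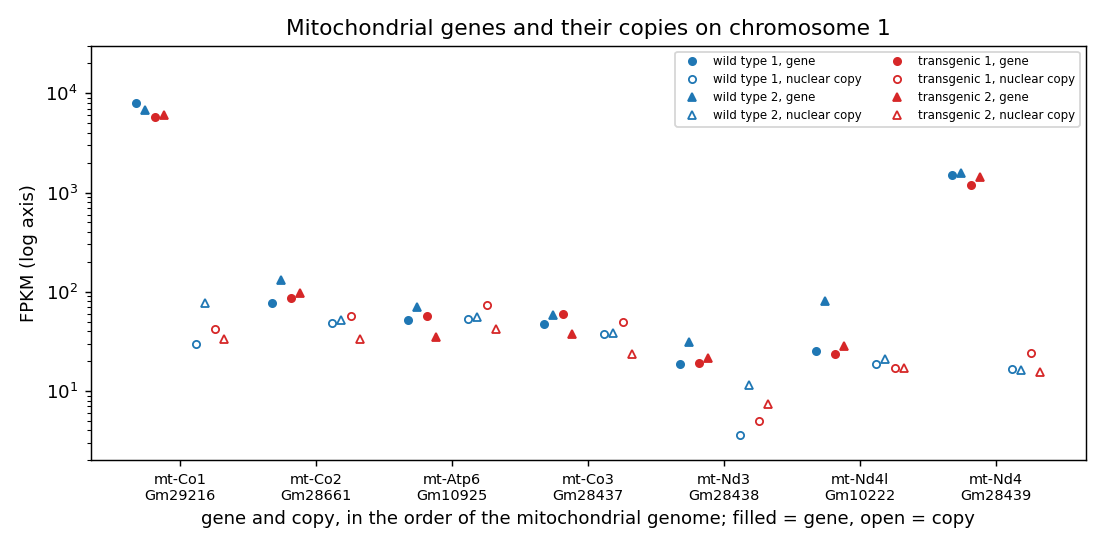
FPKM on a log axis of the 7 mitochondrial genes with a copy in the block on chromosome 1 (filled) and of that copy (open), 1 point per library. Genes and copies lie within 3.64 to 132 FPKM for the 5 genes from mt-Co2 to mt-Nd4l, while mt-Co1 and mt-Nd4 lie far above their partial copies.

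The rRNA genes lay far below the upper group of protein genes. mt-Rnr2 (1094 to 2675), the RNA of the large mitochondrial ribosomal subunit, lay at 187 and 186 FPKM for wild-type and 161 and 180.3 for transgenic islets. mt-Rnr1 (70 to 1024), the RNA of the small subunit, lay at 134 and 159.8 against 106 and 136. Both transgenic libraries were below both wild-type ones in mt-Rnr2, while in mt-Rnr1 transgenic 2 lay above wild type 1. mt-Nd1, the next protein gene of the same precursor, was 13.3 to 16.4 times higher per length than mt-Rnr2. Whether the library kit selected RNA by poly(A) tail is not stated in the labels, so these levels cannot be read as the cell's content of ribosomal RNA.

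tRNA genes are 59 to 75 bases long, against 204 to 1824 for protein genes, and a single read of a gene of 68 bases is worth 0.567 to 0.700 FPKM here. The 22 genes held 1330, 1702, 1108 and 1315 reads over the 4 libraries (wild type first), and 5 of them had 0 reads in every library (mt-Tf, mt-Ti, mt-Tm, mt-Ts1 and mt-Td). A count of 0 allows up to 3 reads. mt-Tp, the proline tRNA gene, held most tRNA reads, with 1031 and 1024 for wild-type and 746 and 849 in transgenic islets. Its levels of 645 and 589 against 432 and 603 FPKM were the only ones of a tRNA gene above those of the rRNA genes in every library. mt-Tt, the threonine tRNA gene that adjoins it on the opposite strand, had 0, 3, 0 and 1 reads. Both are printed, because they are neighbours of the same length with very different read numbers, as are mt-Tn and mt-Tc, which follow in reads (GENCODE M21, GRCm38, each 5′ to 3′ on its own strand, no capitals). They lie at chrMT:15356-15422 (minus), chrMT:15289-15355 (plus), chrMT:5089-5159 (minus) and chrMT:5192-5257 (minus).
mt-Tp: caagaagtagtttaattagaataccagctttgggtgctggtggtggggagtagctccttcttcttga
mt-Tt: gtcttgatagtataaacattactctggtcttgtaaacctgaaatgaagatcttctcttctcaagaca
mt-Tn: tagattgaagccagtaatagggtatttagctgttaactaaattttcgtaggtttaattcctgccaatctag
mt-Tc: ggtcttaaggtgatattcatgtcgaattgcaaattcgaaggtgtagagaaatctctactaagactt

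The 4 tRNA genes with the most reads were all on the minus strand. The 8 minus-strand genes held 1269, 1590, 1041 and 1222 reads over the 4 libraries (wild type first), against 61, 112, 67 and 93 in the 14 plus-strand genes. Most of the minus-strand reads were those of mt-Tp (1031, 1024, 746 and 849), while mt-Ts1 on that strand had 0. Whether counting used strand is not given. mt-Tc, for cysteine, lay at 59.7 and 181 FPKM for wild-type and 54.1 and 134 for transgenic islets, and mt-Tn, for asparagine, at 48.4 and 109.7 against 74.3 and 100.5. Both were higher in the libraries numbered 2. mt-Te, for glutamic acid, lay at 34.0 and 25.2 against 34.9 and 19.3 FPKM and was lower in the libraries numbered 2. Of the plus-strand genes, mt-Tl2, a leucine tRNA gene, had 16 and 64 wild-type reads and 18 and 39 in transgenic islets, again high in number 2. mt-Tl1, the other leucine tRNA gene, had 19 and 27 against 30 and 24 reads, or 10.6 and 13.9 against 15.5 and 15.2 FPKM. Among the 11 tRNA genes compared, mt-Tl1 alone had genotypes that did not overlap in FPKM, with both transgenic libraries higher. Of all genes compared, 12.2% were without overlap in that direction and 9.03% in the other. The reads of mt-Tl1 did overlap. The other 16 tRNA genes had at most 11 reads in any library, so differences in them were not detectable at this depth.

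The genotypes were compared to ask which RNAs are at another level in islets with the miR-29a/b-1 transgene. No mitochondrial gene passed the test: limma on log2(FPKM + 1) called 0 of the 26 compared, and 0% of all 12716 genes, with 0 of the 26 and 83 of all genes at an unadjusted p under 0.05. With voom on read counts, also with genotype as the only term, 0 were called, with 32 genes at an unadjusted p under 0.05. In genes that differ by number, that difference adds to the error of both fits. Fits with number as a term are given with the processing checks below. Both transgenic libraries lay below both wild-type ones in 7 of the 13 protein genes, those of the upper group, in 1 of 2 rRNA genes and in 0 of 11 tRNA genes, against 9.03% of all genes compared. Both lay above in 0 of the 13 protein genes, 0 of 2 rRNA genes and 1 of 11 tRNA genes, against 12.2% of all genes compared. The 13 had a median log2 fold change of -0.25 on the log2(FPKM + 1) scale, against 0.012 over all genes compared. These genes share precursors, so they are not independent of each other.

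The 7 genes of the upper group had much the same fold change. mt-Co1 had a log2 fold change of -0.30 ± 0.20 and mt-Nd1 of -0.21 ± 0.21 (limma, standard error, n = 2 per group, adjusted p = 1.00 for each), and the other 5 lay between them. Within number 1 the fold changes of the 7 ran from -0.52 in mt-Nd2 to -0.25 in mt-Nd6, and within number 2 from -0.25 in mt-Nd6 to -0.05 in mt-Nd1. mt-Nd6 thus had the same difference in both numbers, and the other 6 had a smaller one in number 2. Of all 13, 8 were lower in transgenic islets within both numbers, against 27.4% of all genes compared. mt-Nd4l had the largest estimate, -0.79 ± 0.57 (limma, adjusted p = 1.00, n = 2 per group), with -0.11 in number 1 and -1.46 in number 2. It rested on wild type 2, without which it was 0.024.

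The rRNA genes had log2 fold changes of -0.28 ± 0.22 in mt-Rnr1 and -0.13 ± 0.17 in mt-Rnr2 (limma, adjusted p = 1.00 for each, n = 2 per group). In mt-Rnr1 the difference was -0.34 in number 1 and -0.23 in number 2, and in mt-Rnr2 it was -0.22 and -0.05. The 11 tRNA genes compared had a median of -0.10, with 2 lower and 1 higher within both numbers, against 27.4% and 33.5% of all genes compared. mt-Tp had -0.58 in number 1 and 0.03 in number 2, and mt-Tl1 had 0.51 and 0.12. Fold changes of the tRNA genes ran from -1.62 to 0.61 in number 1 and from -0.43 to 1.42 in number 2, with mt-Tw, at 9, 4, 2 and 11 reads, at the low end in number 1 and the high end in number 2. Protein, rRNA and tRNA genes were not tested against each other.

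**Figure D5:**
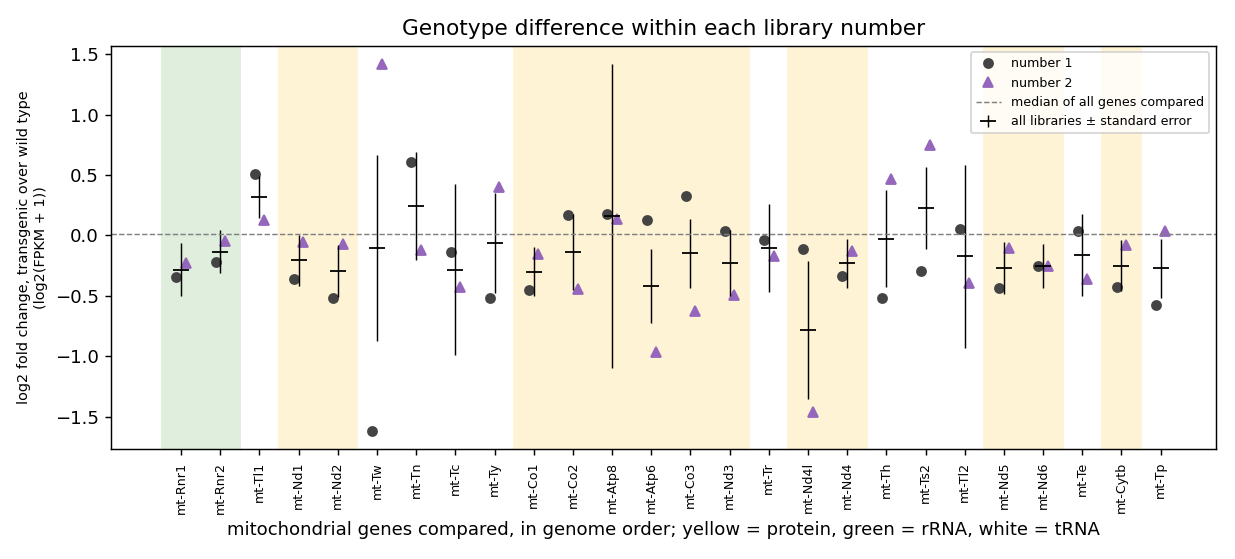
Log2 fold change of transgenic over wild type on the log2(FPKM + 1) scale for the 26 mitochondrial genes compared, within number 1 (circles), within number 2 (triangles) and over all libraries (bar with standard error). The 7 protein genes of the upper group lie below 0 in both numbers, from -0.52 to -0.05, while the run from mt-Co2 to mt-Nd4l and the tRNA genes hold points on both sides of 0.

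Other measures of the genes and libraries are given beside this difference, and their part in it was not tested. The mitochondrial protein genes had a GC content of 31.9% to 41.1%, below the median of 49.7% over the genes compared, and with the curve on GC content removed from each library (voom with number as a term) their median was -0.059. Dividing by each library's FPKM total without the mitochondrial genes shifted the median of all genes compared from 0.012 to 0.12 and that of the 13 protein genes to -0.12. Relative to the median of all genes, the protein genes were at -0.26 as deposited and at -0.24 on that scale. There mt-Nd5 alone was without overlap between genotypes among the 13, against 2.39% of all genes compared. The FPKM totals over all genes also differed between libraries, at 460759 and 520080 for wild-type and 389157 and 505356 for transgenic islets. On median-of-ratios size factors the 7 genes of the upper group stayed without overlap, against 10.4% of all genes compared with both transgenic libraries lower. The same 7 did so on the total without Ins1, Ins2 and Iapp, against 9.26%. Markers of acinar cells, the enzyme-secreting cells around the islets, had higher values within both numbers for the transgene in 15 of the 15 compared of 16 listed, against 33.5% of all genes compared, with 0 called. They summed to 5471 and 1179.7 FPKM for wild-type and 7223 and 1961 for transgenic islets. The defining gene Prss1, the listed marker not compared, lay below 1 FPKM throughout. It was at 0.416 and 0 FPKM for wild-type and 0.0482 and 0 for transgenic islets, so lower for the transgene in number 1. The acinar markers compared had a median log2 fold change of 0.61 and the 10 beta cell markers of -0.063. Of the 5 fat markers listed, Ucp1 and Adipoq were at or near 0 in every library, and 2 others were compared. The 5 summed to 3.13 and 1.74 FPKM for wild-type and 2.74 and 1.71 for transgenic islets.

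Libraries numbered 2 differed from those numbered 1 in some members in both genotypes. Both were above both numbered 1 in 10 of the 26 genes compared, against 34.4% of all genes compared, and both were below in 2, against 32.4%. The 10 were mt-Co2, mt-Atp8, mt-Nd3, mt-Nd4l, mt-Rnr1, mt-Tn, mt-Tc, mt-Ty, mt-Tr and mt-Tl2, and the 2 were mt-Th and mt-Te. The first share is near that of all genes and is no result about these members. The ratio of number 2 to number 1 was largest in mt-Atp8, at 10.6 for wild-type and 9.51 in transgenic islets. It was 3.68 and 2.66 in mt-Tl2 and 3.03 and 2.48 in mt-Tc. In the upper group of protein genes the ratio ran only from 0.804 to 1.05 for wild-type and from 0.996 to 1.27 in transgenic islets. The labels do not say what the numbers stand for.

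Nuclear genes that serve the mitochondrial genome were examined as lists, and limma called 0 genes in each. Their counts can be read against 27.4% of all genes compared that were lower, and 33.5% that were higher, within both numbers. Up to 4 genes per list were picked by smallest p, which favours genes whose genotypes do not overlap. Their directions are therefore no result about the lists. Of all genes compared, 9.03% had both transgenic libraries below both wild-type ones and 12.2% had both above. Among 24 genes of mitochondrial transcription and DNA replication, 21 were compared, with 7 lower and 5 higher within both numbers and a median log2 fold change of 0.0021. Polrmt, the mitochondrial RNA polymerase, lay at 3.21 and 3.38 FPKM for wild-type and 4.31 and 3.94 for transgenic islets. Polg, the catalytic subunit of the DNA polymerase, lay at 2.34 and 2.41 against 3.05 and 2.72. Mterf2, of a family of mitochondrial transcription factors, lay at 2.89 and 3.61 against 2.41 and 2.80, and Dguok, a kinase that supplies nucleotides for mitochondrial DNA, at 4.997 and 4.61 against 4.24 and 4.14. These 4 had the smallest p-values of the list, 2 with higher and 2 with lower values in both transgenic libraries, and none passed the test.

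Of 26 genes of mitochondrial RNA processing, stability and decay, 23 were compared, with a median of -0.04 and 11 lower and 7 higher within both numbers. Fastk, of a family of mitochondrial RNA-binding proteins, lay at 11.8 and 11.7 FPKM for wild-type and 14.5 and 13.9 for transgenic islets. Mrm1 and Mrm3 are methyltransferases of mitochondrial rRNA. Mrm1 lay at 3.59 and 3.87 against 4.81 and 3.93, and Mrm3 at 2.99 and 3.05 against 2.16 and 2.78. Fastkd3, of the Fastk family, lay at 1.27 and 1.45 against 0.938 and 1.14. None of these 4, again picked by smallest p, passed the test. Fastk and Mrm1 were higher while Mrm3 and Fastkd3 were lower in both transgenic libraries. Of 34 genes of tRNA charging and modification, 33 were compared, with a median of 0.014 and 10 lower and 10 higher within both numbers. Trmt5, a tRNA methyltransferase, lay at 5.52 and 5.75 FPKM against 4.50 and 4.92, and Wars2, which charges the tryptophan tRNA, at 1.77 and 1.60 against 1.40 and 1.19. Vars2, which charges the valine tRNA, lay at 2.96 and 2.80 against 4.11 and 3.15, and Pus1, a pseudouridine synthase, at 4.44 and 4.87 against 5.85 and 5.11. Trmt5 and Wars2 were thus lower and Vars2 and Pus1 higher in both transgenic libraries. These 4 were picked by smallest p as well, and none passed the test.

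The 28 nuclear subunits of complexes I, III, IV and V had a median log2 fold change of -0.02, with 10 lower and 6 higher within both numbers. Cyc1, the cytochrome c1 of complex III, lay at 19.4 and 22.01 FPKM for wild-type and 24.8 and 24.7 for transgenic islets, and Uqcrc2, a core subunit of the same complex, at 49.1 and 42.1 against 38.0 and 40.0. Ndufs8, a complex I subunit, lay at 36.6 and 36.2 against 32.1 and 33.2, and Atp5o, an ATP synthase subunit, at 13.8 and 16.8 against 12.1 and 14.1, where the genotypes overlapped. Sdha, the catalytic subunit of complex II, had a log2 fold change of 0.02 ± 0.17 (limma, adjusted p = 1.00, n = 2 per group). The 4 complex II genes had a median of 0.014. The difference between nuclear and mitochondrial subunits was not tested.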

How the data were processed

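Islet RNA was sequenced in 4 libraries, 2 wild type and 2 transgenic, grouped by their titles. The authors deposited 1 table of FPKM with gene lengths and positions. HTSeq 0.6.0 and GRCm38 are named in the submitters' processing notes, while the aligner, the strand setting, the read length and the handling of reads with several matches are not given in the sources used here. FPKM times length came to whole multiples of 1 step per library, within 0.001, for 100% of values above 0, and these were taken as reads. The library total behind the step was 0.957 to 1.09 times the summed reads. Intervals (exact binomial, 95%) and floors cover counting error only.

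The test was limma 3.58.1 (R 4.3.3) on log2(FPKM + 1) over 12716 genes with at least 1 FPKM in at least 2 libraries, 2-sided, Benjamini-Hochberg adjusted at 0.05, with genotype as the only term. This scale understates the fold changes of low genes. Alternatives were other pseudocounts, filters and scalings, number as a term, voom on the reads, and removal of each library's lowess curve (span 0.3) on GC content of the longest GENCODE M21 transcript. Shared windows of 50 bases were counted on both strands, and copies were aligned with Biopython 1.88. All 13 protein and 2 rRNA genes, and the 6 tRNA genes with the most reads (and any without overlap between genotypes at 10 or more reads), were given by library, as were up to 4 genes per nuclear list by p. The members, lists and tests were chosen with earlier results of these data known. The marker lists for alpha, delta and PP, duct, endothelial, stellate and macrophage cells had 0 genes called and median log2 fold changes of -0.02, 0.012, 0.04, 0.13, 0.11 and 0.02, and the fat list had -0.07.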

Additional observations from a re-analysis of the deposited data

How the results depend on the processing

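The genes called stayed at 0 under another pseudocount, filter or scaling, in voom without number, with each library left out (0 to 0), and with reads of nuclear copies added to their genes, which was chosen after seeing the data. The numbers do not establish pairs, with only 2 of them and no label saying what they mark, although deviations of same-numbered libraries correlated at 0.775 across genes. With the replicate block 0 genes were called in limma, but 238 in voom on the reads (204 higher, 34 lower), and 111 with the GC curve removed as well. Of the members only mt-Nd4l was called in the last 2 (-0.96 ± 0.18 and -0.84, voom adjusted p = 6.9e-04 and 3.7e-06, 1 residual degree of freedom), where wild type 2 alone was high. For the share of reads, the mean of the differences within number was -0.377 points. In this design it equals the difference of the group means by arithmetic, so it is no separate check. With the GC curve removed the median of the protein genes went from -0.25 to -0.059 and the mean of the rRNA genes from -0.21 to -0.022. The median of the tRNA genes compared went from -0.10 to 0.13 and so changed sign. Of the genes given by library, mt-Rnr2 (0.056), mt-Co2 (0.010), mt-Co3 (0.021) and mt-Te (0.084) changed sign. On the FPKM total without mitochondrial genes mt-Rnr2 went to 0.0020, a scaling that moved the median of all genes from 0.012 to 0.12 as well. The cause of the GC result was not tested.

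Leaving out 1 library at a time gave -0.34 to -0.15 for the protein median, -0.34 to -0.08 for the rRNA mean, -0.38 to 0.36 for the tRNA median and -0.566 to -0.188 points for the share of reads. The protein genes mt-Nd4l (-1.60 to 0.024), mt-Atp8 (-1.17 to 1.48), mt-Co2 (-0.53 to 0.25), mt-Co3 (-0.48 to 0.18) and mt-Nd3 (-0.57 to 0.12) changed sign, as did the tRNA genes mt-Tc (-1.07 to 0.51), mt-Tn (-0.34 to 0.82), mt-Te (-0.57 to 0.24) and mt-Tl2 (-1.06 to 0.72). The 7 upper protein genes stayed negative, but all except mt-Nd6 (-0.26 to -0.25) moved by over 1.5 times with 1 library left out: mt-Co1 -0.41 to -0.19, mt-Cytb -0.41 to -0.096, mt-Nd1 -0.36 to -0.05, mt-Nd2 -0.45 to -0.14, mt-Nd4 -0.37 to -0.095 and mt-Nd5 -0.44 to -0.10.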

Other observations

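The nuclear copies differed in how many reads they drew. The 7 copies on chromosome 1, with an identity of 99.8% to 100% over the aligned bases, held 3204 and 4308 reads for wild-type and 4541 and 2261 for transgenic islets. Another set of copies on chromosome 2 was less alike. Gm13340 covers all 1545 bases of mt-Co1 at 97.6% identity, Gm13341 covers 672 bases of mt-Co2 at 97.6%, and Gm13339 covers 510 bases of mt-Nd2 at 96.7%. Gm13340 lay at 1.84 and 3.42 FPKM for wild-type and 2.66 and 2.50 for transgenic islets, and Gm13339 at 0.0821 and 0.529 against 0.152 and 0.653. Gm13341 was at 0.142 FPKM or less in every library.

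Gm29216, the partial copy of mt-Co1 on chromosome 1, lay at 29.5 and 77.5 FPKM for wild-type and 42.3 and 33.7 for transgenic islets. Its value in wild type 2 stood apart from the other libraries, as did that of mt-Nd4l (80.1 FPKM).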
